A study of Mus musculus with 7 samples.

Results

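The transcription factors that hold the β-cell in its differentiated state were followed in mouse β-cells with and without Raptor, the scaffold protein of the growth-regulating kinase complex mTORC1. The factors were the homeodomain proteins Pdx1, Nkx6-1, Nkx6-2, Pax6 and Isl1, the basic leucine zipper protein Mafa, the winged-helix proteins Rfx3 and Rfx6, and the zinc finger proteins Insm1 and Myt1. They were chosen by gene symbol in the platform annotation, where each of the 10 had 1 transcript cluster, the unit for which the array gives a value, among 22198 transcript clusters in all.

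RNA was measured on Affymetrix Clariom S arrays, 4 from βRapKO GFP mice (KO: Raptor-/-, RIP-Cre, Rosa26 GFP) and 3 from WT mice (Raptor+/+, RIP-Cre, Rosa26 GFP), all 2 weeks old, age-matched and labelled C57BL/6. The WT cells therefore also carried the Cre transgene and the GFP reporter. Cells were sorted on GFP, which marks every cell in which the rat insulin promoter has driven Cre, whatever that cell expresses later, and the Cre line had a mixed strain background. Each array held RNA pooled from several animals of 1 genotype, so its value is an average over those animals, and arrays are called KO1 to KO4 and WT1 to WT3 after the replicate numbers in their labels.

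β-Cell identity rests on a network of transcription factors that bind the insulin gene and the genes of glucose sensing and granule secretion, and that also bind one another's genes. Pdx1, Nkx6-1 and Mafa are the factors most closely tied to the β-cell itself, whereas Pax6, Isl1, Rfx6, Insm1 and Myt1 act in several or all islet endocrine cell types. Mafa marks the maturation of mouse β-cells after birth.

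Values are log2 signals after quantile normalization, so a difference of 1 stands for a fold change of 2, and differences are KO minus WT. Levels were compared between arrays within a gene and not between genes, because probe sets differ in how strongly they hybridise. The targeted gene did not separate the groups: Rptor lay between 4.40 and 8.54 on KO arrays and between 5.26 and 6.08 on WT arrays, and the sources used here do not say where its probes lie relative to the deleted part, so it was no check of the labels. Defining β-cell genes were bright, with Ins2 at the highest value of each of the 7 arrays, but so was Gcg, the glucagon gene of α-cells, so neither could show a difference. The mean of 10 β-cell marker genes, 3 of them among the factors described here, ranged from 13.92 to 15.06 on KO arrays, with KO4 lowest, and from 14.89 to 15.23 on WT arrays. The mean of 15 exocrine acinar genes ranged from 8.85 to 15.73 on KO arrays and from 7.55 to 14.78 on WT arrays. Means of the α, δ, PP and ε, duct, endothelial, mesenchyme and macrophage marker lists overlapped between KO and WT arrays. The α mean was highest on KO4 (12.05) and WT3 (11.69), followed by KO1 (11.59). Of its 5 markers only Slc38a5 was itself highest on both arrays (11.09 and 9.25). Irx2 was highest on WT3 (6.42) but not on KO4 (5.98). Dim Irx1 was highest on KO4 (4.11) but lay lower on WT3 (3.65) than on KO2 (3.71). Gcg was equal on all arrays, and Ttr was brighter on KO1 (19.40) and KO2 (19.41) than on KO4 (19.14) or WT3 (19.24). The mesenchyme mean was also highest on KO4 (6.01) and WT3 (5.83), followed by KO3 (5.47). The δ, PP and ε, duct, endothelial and macrophage means were neither highest nor lowest on both of these arrays.

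KO4 and WT3 stood apart in a further way. The study's methods describe male mice, and the mean of 3 Y-linked genes (Kdm5d, Uty and Eif2s3y) was 4.52 on KO4 and 4.42 on WT3, against 7.49 to 8.89 on the other KO arrays and 8.41 and 8.55 on the other WT arrays. The labels give no sex for any array. Whether the makeup of these pools bears on the factors was not tested.

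None of the 10 factors differed between KO and WT beyond the spread between arrays. In limma's test, 0 of the 10 passed an unadjusted p of 0.05, beside 2.18% of all transcript clusters, and 0 passed after Benjamini-Hochberg adjustment, beside 0% of all transcript clusters (adjusted p = 1 for each factor). KO arrays lay wholly on one side of WT arrays for 0 of the 10, beside 3.93% of all transcript clusters. In KO, 4 means were higher and 6 were lower, with a median difference of -0.34 beside 0.00 over all transcript clusters, and without KO4 that median was 0.02. With 4 arrays against 3 the exact permutation test can reach p = 0.0286 at the smallest. In sorted but bulk RNA, fewer cells of a type and less RNA per cell cannot be told apart.

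**Figure D1:**
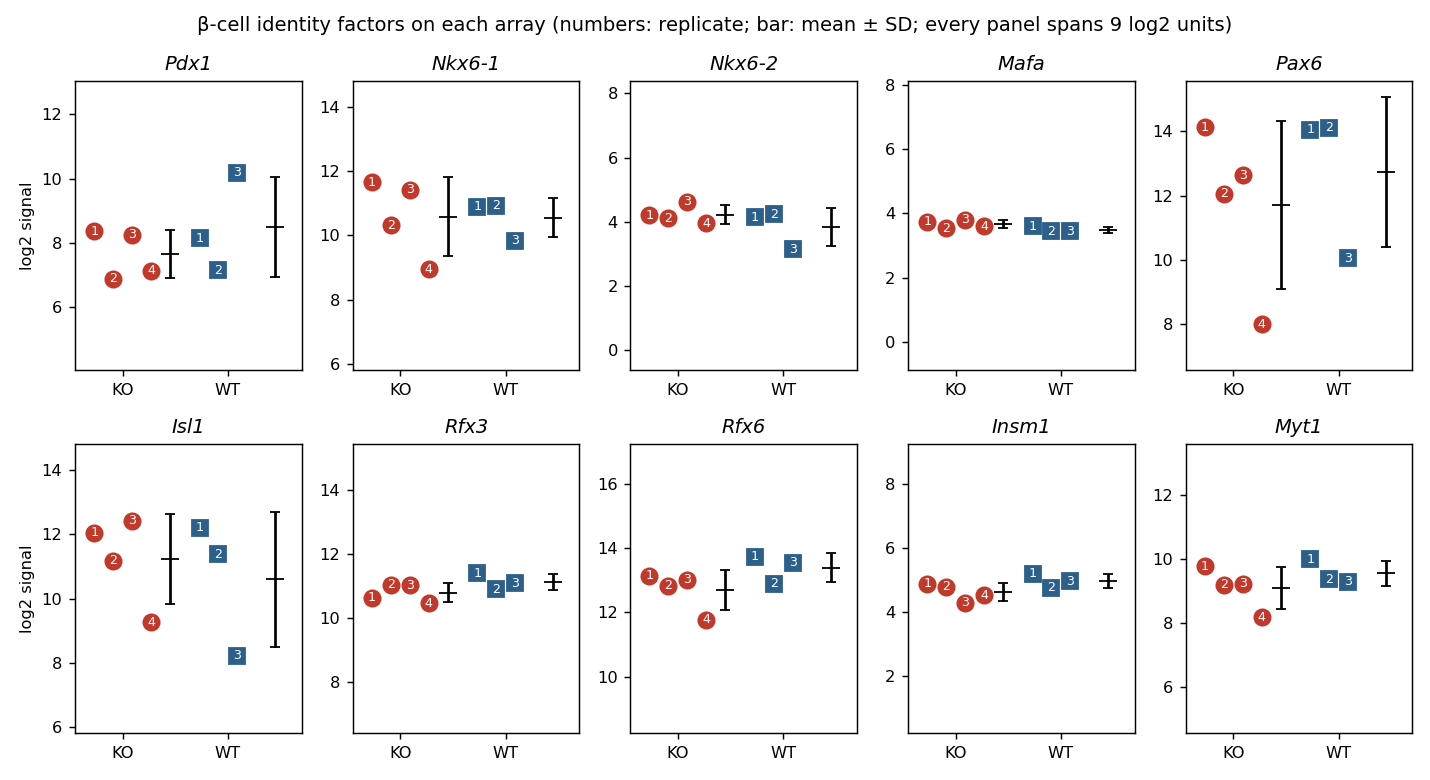
Log2 signal (y axis) of each of the 10 factors on the KO arrays (red circles) and the WT arrays (blue squares), with replicate numbers inside the symbols and bars at mean ± SD. Every panel spans 9 log2 units, and KO and WT values overlap in each; KO4 and WT3 lie at the bottom for Pax6 and Isl1.

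Among the homeodomain factors, Pax6 and Isl1 varied most between arrays. Pax6, a paired-domain factor that activates hormone genes in all islet endocrine cells, had log2 signals of 14.13, 12.06, 12.62 and 7.999 on KO1 to KO4, against 14.05, 14.11 and 10.05 on WT1 to WT3. Its brightest KO and WT arrays differed little, and its dimmest array was KO4, followed by WT3. The mean was 11.70 ± 2.62 in KO (SD, n = 4) and 12.74 ± 2.33 in WT (n = 3), a difference of -1.03 with a standard error of 1.57 and a 95% interval from -4.69 to 2.63 (limma p = 0.530, exact permutation p = 0.629). Leaving out KO4 alone turned the difference to 0.20, and leaving out both KO4 and WT3 gave -1.14. The range over the 7 arrays was 6.13, and the SD between arrays within groups, 2.51, was at the 99.7th percentile of all transcript clusters.

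Isl1, a LIM-homeodomain factor of endocrine cell survival and hormone gene activation, had signals of 12.05, 11.18, 12.41 and 9.26 on KO1 to KO4, against 12.20, 11.38 and 8.22 on WT1 to WT3. It again was dimmest on WT3 and KO4. The mean was 11.22 ± 1.41 in KO and 10.60 ± 2.10 in WT, a difference of 0.63 (SE 1.08, 95% interval -1.90 to 3.15, limma p = 0.580, exact permutation p = 0.571). Without WT3 the sign turned, to -0.56, and without both KO4 and WT3 the difference was 0.09. Ldb1, the cofactor that binds LIM-homeodomain proteins such as Isl1, did not share the pattern, with 13.02, 12.27, 11.94 and 12.95 on the KO arrays, against 12.83, 12.79 and 12.08 on the WT arrays.

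Nkx6-1, which keeps β-cells distinct from other endocrine types and is needed for insulin secretion, had signals of 11.65, 10.31, 11.42 and 8.94 on KO1 to KO4, against 10.89, 10.91 and 9.84 on WT1 to WT3. KO4 and WT3 were again the dimmest arrays, by a smaller margin. Group means were almost equal, 10.58 ± 1.24 in KO and 10.55 ± 0.62 in WT, with a difference of 0.03 (SE 0.67, 95% interval -1.52 to 1.59, limma p = 0.960, exact permutation p = 1) that changed sign with the scaling and with the array left out. Nkx6-2, a paralogue used mainly earlier in endocrine development, was dim, at the 14.8th percentile of mean signal, with 4.21, 4.11, 4.62 and 3.95 on the KO arrays, against 4.14, 4.24 and 3.14 on the WT arrays. Its difference was 0.38 (SE 0.33, limma p = 0.274, exact permutation p = 0.429), and WT3 was its lowest array, without which the difference was 0.0361.

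Both KO4 and WT3 thus lay below the other 5 arrays for 4 of the 10 factors, namely Pax6 by 2.01, Isl1 by 1.92, Nkx6-1 by 0.47 and Nkx6-2 by 0.16. Over all transcript clusters 9.55% had this order, and 1.10% had it with a margin of at least 1, as Pax6 and Isl1 did. The comparison was chosen after the values were seen and carries no test. The acinar marker mean was highest on KO4 (15.73) and lowest on WT3 (7.55). The Y-linked mean was lowest on this pair of arrays, and the α and mesenchyme means were highest on it. Among the α markers that order held for Slc38a5 only. Whether any of these bears on the factors was not tested. Both arrays lay above the other 5 for 0 of the 10 factors, beside 8.72% of all transcript clusters.

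**Figure D2:**
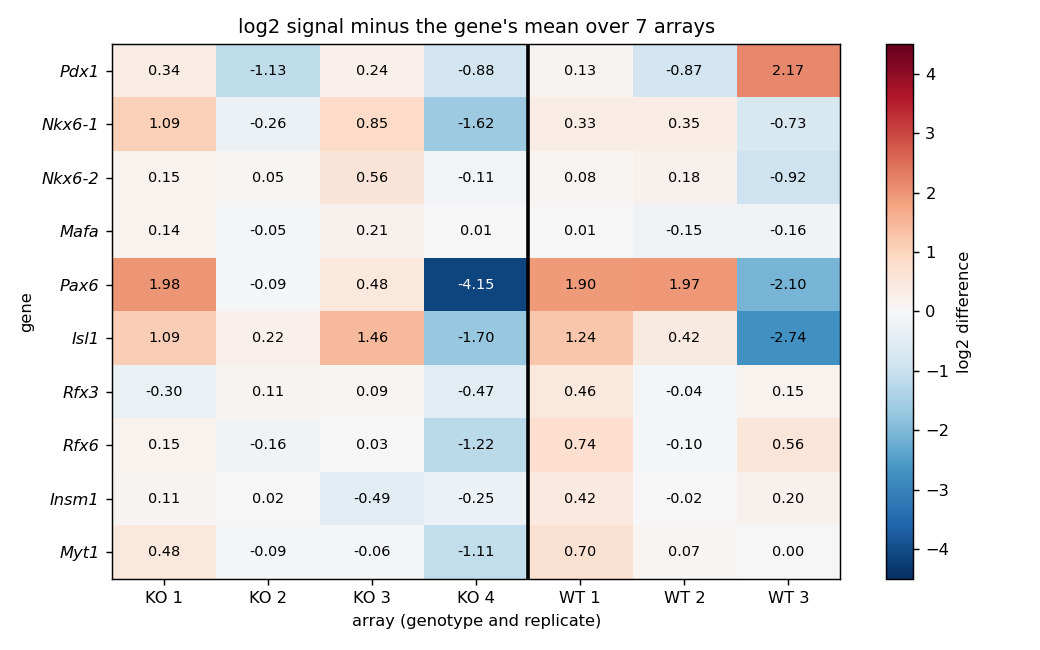
Log2 signal of each factor minus its mean over the 7 arrays (colour), with KO arrays left of the black line and WT arrays right of it. Pax6 spans the widest range, 6.13, and Pax6 and Isl1 are lowest on KO4 and WT3, whereas Pdx1 is highest on WT3.

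Pdx1, the homeodomain factor that founds the pancreas and later activates the insulin gene, ran differently from its class. Its signals were 8.35, 6.88, 8.25 and 7.14 on KO1 to KO4, against 8.15, 7.14 and 10.19 on WT1 to WT3. WT3, among the dimmest arrays for Pax6 and Isl1, was the brightest for Pdx1, and KO2 was the dimmest. The mean was 7.66 ± 0.75 in KO and 8.49 ± 1.55 in WT, a difference of -0.83 (SE 0.73, 95% interval -2.54 to 0.87, limma p = 0.289, exact permutation p = 0.486) that was 0.01 without WT3. The 2 named transcripts nearest to Pdx1 in their course over the 7 arrays were the histone genes H4bc24 and H2bc12, with root mean square distances of 0.18 and 0.30 between values centred on each gene's mean. Both were also lowest on KO2 and highest on WT3.

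To compare some of the wide movers at the DNA level, the 120 bases before an annotated start of Pax6, Isl1 and Pdx1 are shown (RefSeq, GRCm38.p6, 5′ to 3′ on the gene's strand). TAAT (or ATTA on the other strand), the core that homeodomain proteins bind, and CCAAT (or ATTGG), the box bound by NF-Y, are in capitals.
Pax6, chr2:105668776-105668895, + strand: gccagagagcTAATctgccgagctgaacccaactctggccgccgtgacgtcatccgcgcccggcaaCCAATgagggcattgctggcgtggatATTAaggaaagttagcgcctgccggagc
Isl1, chr13:116309689-116309808, - strand: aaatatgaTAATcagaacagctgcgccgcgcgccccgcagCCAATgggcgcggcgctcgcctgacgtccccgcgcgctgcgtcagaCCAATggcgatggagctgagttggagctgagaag
Pdx1, chr5:147269977-147270096, + strand: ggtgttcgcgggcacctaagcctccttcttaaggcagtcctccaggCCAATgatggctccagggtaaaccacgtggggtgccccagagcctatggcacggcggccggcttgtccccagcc
The stretches of Pax6 and Isl1 hold both motifs, and that of Pdx1 holds CCAAT only. Both motifs are common: TAAT is in 58.0% and CCAAT in 37.4% of 32851 RefSeq windows of 300 bases (250 before and 50 after a start), and each is in a window of 5 of the 8 factors that have windows. A match is a description of letters and not of a bound site.

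The winged-helix factors were steadier, and both had lower means in KO without passing the test. Rfx6, needed for the formation of islet endocrine cells and for insulin secretion in adult β-cells, had signals of 13.14, 12.83, 13.02 and 11.77 on KO1 to KO4, against 13.74, 12.89 and 13.55 on WT1 to WT3. KO4 was lowest, and KO1 and KO3 lay above WT2, so the groups overlapped. The mean was 12.69 ± 0.63 in KO and 13.39 ± 0.44 in WT, 1.63-fold lower in KO (difference -0.70, SE 0.39, 95% interval -1.61 to 0.21). Its p was the smallest of the 10 in limma's test, 0.112, and the exact two-sided permutation p was 0.2, from 7 of the 35 assignments. Without KO4 the difference was -0.39. Between arrays of equal number it was -0.59, -0.06 and -0.53, lower in KO in all 3 pairs, though no source says what a number shares.

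Rfx3, a regulator of cilia genes and of the glucose-sensing enzyme glucokinase in β-cells, had signals of 10.63, 11.04, 11.02 and 10.46 on the KO arrays, against 11.39, 10.89 and 11.08 on the WT arrays. KO1 and KO4 were lower than every WT array, and KO2 and KO3 were not. The mean was 10.79 ± 0.29 in KO and 11.12 ± 0.25 in WT (difference -0.33, SE 0.24, 95% interval -0.90 to 0.24, limma p = 0.213, exact permutation p = 0.229). Its spread between arrays within groups, 0.27, was at the 22.6th percentile of all transcript clusters. In this fit its interval leaves out a KO mean lower by more than 0.90 or higher by more than 0.24. With trended and robust variances the SE was 0.42, so these bounds depend on the variance model.

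RFX proteins bind variants of GTTGCC, which reads as GGCAAC on the other strand, and 3 of the 11 windows of the factors, each of another gene, hold this motif, beside 12.5% of all windows. Those 3 stretches, from Pax6 and from both RFX genes, are shown with the motif in capitals.
Pax6, chr2:105668825-105668854, + strand: tcatccgcgcccGGCAACcaatgagggcat
Rfx3, chr19:28011118-28011147, - strand: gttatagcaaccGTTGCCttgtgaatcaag
Rfx6, chr10:51685523-51685552, + strand: ttggtgacttctGGCAACttatttgataat
In Pax6 the motif begins at position -59 relative to the start used above, and its last base is also the first of the CCAAT box shown there. The window of the other annotated Pax6 start lacks this motif. In Rfx3 and Rfx6 it lies after the start. The 3 genes did not share a course over the arrays, since Pax6 was dim on KO4 and WT3 whereas Rfx6 and Rfx3 were dimmest on KO4 and were not dim on WT3. The MAF core TGCTGAC (or GTCAGCA) was in 0 of the 11 windows of the factors, beside 4.67% of all windows.

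Of the zinc finger factors, Myt1, which promotes endocrine differentiation and in mouse β-cells limits the expression of genes of other programmes, had signals of 9.77, 9.20, 9.22 and 8.18 on KO1 to KO4, against 9.99, 9.36 and 9.29 on WT1 to WT3. Only KO1 reached into the WT range. The mean was 9.09 ± 0.66 in KO and 9.54 ± 0.39 in WT (difference -0.45, SE 0.39, 95% interval -1.37 to 0.47, limma p = 0.285, exact permutation p = 0.314). Between arrays of equal number the difference was -0.22, -0.16 and -0.06, lower in KO in all 3 pairs, and without KO4 it was -0.15. Rfx6, Myt1 and Mafa had the same sign in all 3 pairs, which leave out KO4. The share of all transcript clusters with such agreement was not taken, and no source says what a number shares. The agreement is therefore no result about these factors. The other factors had mixed signs, as Rfx3 did with -0.75, 0.15 and -0.06.

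Insm1, a repressor needed for endocrine cell differentiation and for a mature secretory programme, had signals of 4.89, 4.80, 4.29 and 4.52 on KO1 to KO4, against 5.20, 4.76 and 4.97 on WT1 to WT3. KO3 and KO4 were lower than every WT array. The mean was 4.62 ± 0.27 in KO and 4.97 ± 0.22 in WT (difference -0.35, SE 0.23, limma p = 0.175, exact permutation p = 0.171), and its mean signal was at the 32.5th percentile.

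Mafa, the basic leucine zipper factor that activates the insulin gene and rises as β-cells mature, was among the dimmest transcripts, at the 4.8th percentile of mean signal. It had 3.73, 3.54, 3.80 and 3.60 on KO1 to KO4, against 3.60, 3.44 and 3.44 on WT1 to WT3. WT1 lay above KO2, so the groups overlapped, and the range over all arrays was 0.36. The mean was 3.67 ± 0.12 in KO and 3.49 ± 0.10 in WT (difference 0.18, SE 0.19, 95% interval -0.26 to 0.61, limma p = 0.374, exact permutation p = 0.143). No detection calls were used, so whether Mafa was above background is unknown, and its small difference, which was 0.13, 0.10 and 0.36 between arrays of equal number, like that of Nkx6-2 and Insm1, says little about the RNA.

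**Figure D3:**
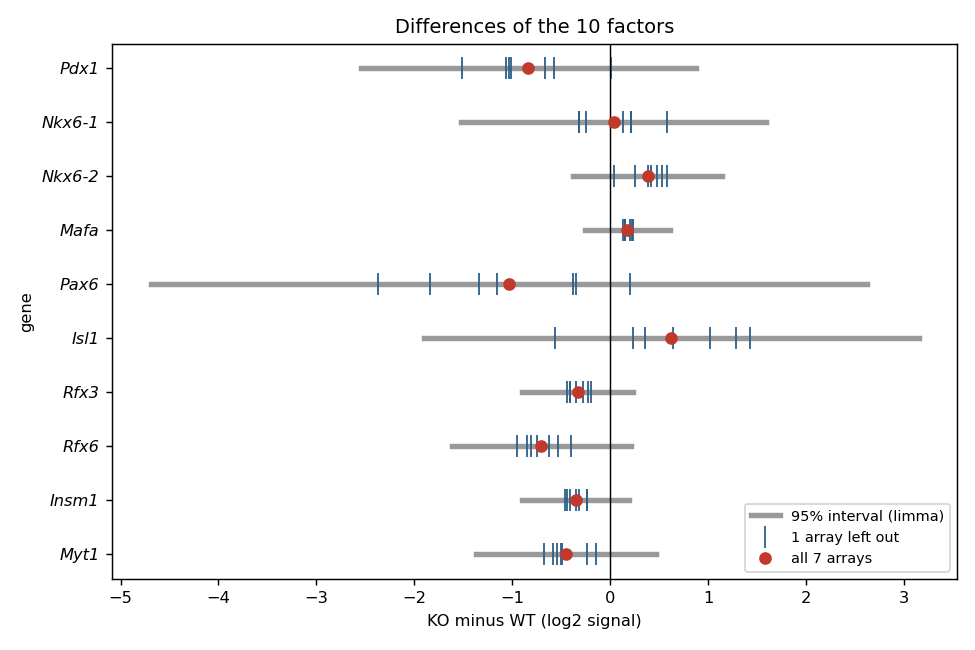
KO minus WT difference in log2 signal (x axis) for each factor (y axis), with the difference over all 7 arrays as a red dot, its limma 95% interval as a grey bar and the differences with 1 array left out as blue ticks. All 10 intervals include 0, and the ticks of Pax6 run from -2.38 to 0.20.

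The precision of the comparison therefore differed widely among the factors. The spread between arrays within groups was 2.51 for Pax6, 1.72 for Isl1, 1.14 for Pdx1 and 1.04 for Nkx6-1, all above the 90th percentile of all transcript clusters. It was 0.57 for Myt1 and 0.56 for Rfx6, and 0.27 for Rfx3. Limma's interval for Pax6 was accordingly from -4.69 to 2.63, whereas that for Rfx3 ended at 0.24. The homeodomain factors, apart from dim Nkx6-2, were thus the least precisely measured, and a p that misses the threshold there does not show that KO and WT were alike.

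**Figure D4:**
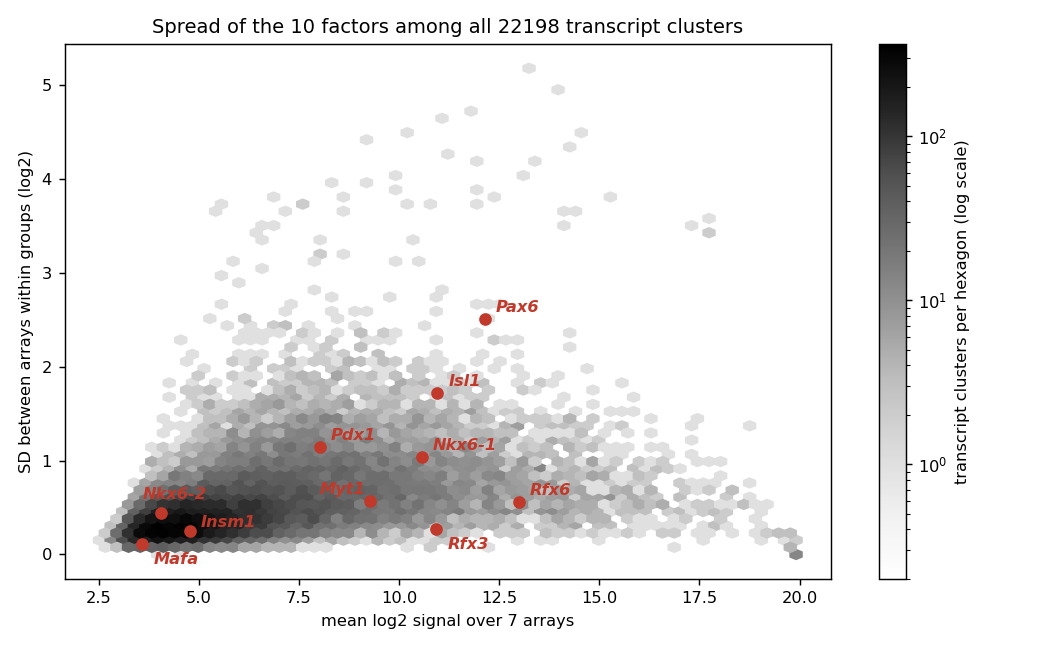
SD between arrays within groups (y axis, log2) against mean log2 signal over the 7 arrays (x axis) for all 22198 transcript clusters (grey hexagons) and the 10 factors (labelled points). Pax6 and Isl1 lie above most transcript clusters, at the 99.7th and 98.4th percentiles of this SD, and Mafa lies at the lower left.

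The factors did not move as a unit from array to array. Among all pairs of factors the most alike were Rfx6 with Myt1, at a root mean square distance of 0.26, and Rfx3 with Insm1, at 0.28. Next came Mafa with Rfx3, at 0.33, whose KO minus WT differences had opposite signs. A small distance between factors of small range partly reflects that range. The least alike was Pdx1 with Pax6, at 2.51. The named transcripts nearest to the widest movers were Sult1d1 (0.60) for Pax6, Sfpq (0.39) and Hmbox1 (0.41) for Isl1, and Gnas (0.21) and Aifm1 (0.22) for Nkx6-1, over 7 arrays. For Rfx6 they were Ankrd23 (0.13) and Kxd1 (0.14), and for Myt1 Otulinl (0.09) and Zpbp (0.14). For Nkx6-2, Mafa, Rfx3 and Insm1, which spanned a small range, the nearest transcript lay at 0.05 to 0.09, a small distance that mostly reflects that range.

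Of 32 related transcription factors of the islet and its progenitors, 27 had a named transcript, and 14 were higher and 13 lower in KO with a median difference of 0.06, which was -0.07 without KO4 and WT3. In limma's test 0 passed an unadjusted p of 0.05, beside 2.18% of all transcript clusters, and 0 to 2 did under the alternatives, with 1 under the replicate block and 2 without KO4 and WT3. The smallest p was that of Hnf4a, a nuclear receptor of liver and islet gene control, with 5.82, 6.72, 4.51 and 5.08 on the KO arrays, against 6.45, 6.65 and 6.99 on the WT arrays (difference -1.16, SE 0.50, unadjusted limma p = 0.0521, exact permutation p = 0.143). KO2 lay within the WT range for it, and without KO2 the difference was -1.55 and passed the unadjusted threshold. Bhlha15, a factor of secretory cells, had 9.16, 8.47, 9.37 and 8.56 on the KO arrays, against 7.82, 8.31 and 8.67 on the WT arrays (difference 0.62, unadjusted limma p = 0.0924, exact permutation p = 0.171), and without KO4 and WT3 the difference was 0.94 and passed the unadjusted threshold. Onecut1, an early pancreatic factor, differed by 0.37 (unadjusted limma p = 0.226, exact permutation p = 0.314). Esrrg, a nuclear receptor of mature β-cell metabolism, resembled Pdx1 in being brightest on WT3, with 7.15, 6.49, 5.91 and 7.40 on the KO arrays, against 7.13, 6.66 and 10.84 on the WT arrays (difference -1.47, SE 0.97, unadjusted limma p = 0.171, exact permutation p = 0.286). Without WT3 the Esrrg difference was -0.16. The other 5 listed factors were not analysed here.

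Of 18 genes of hormone production, glucose sensing and secretion known to be controlled by these factors, 16 had a named transcript. The KO mean was higher for 3 and counted as lower for 13, whereas 11029 of all 22198 transcript clusters had a lower KO mean. The 13 include Ins2, which stood at the upper limit on each array and did not differ. The median difference was -0.41. That median was -0.18 with array weights, -0.17 without KO4 and WT3, and 0.00 without KO3, KO4 and WT3. In limma's test 2 passed an unadjusted p of 0.05, both lower, beside 2.18% of all transcript clusters, and 0 passed after adjustment. Slc2a2, the glucose transporter GLUT2 and a classical Pdx1 target, had 15.43, 14.67, 14.36 and 13.25 on the KO arrays, against 16.64, 16.29 and 16.19 on the WT arrays, with every KO array below every WT array (difference -1.94, SE 0.48, unadjusted limma p = 0.00416, exact permutation p = 0.0571). It was the only target whose groups did not overlap, 1 of 16 or 6.25%, beside 3.93% of all transcript clusters. Slc30a8, the zinc transporter of insulin granules, averaged 18.27 ± 0.66 in KO and 19.23 ± 0.26 in WT, near the upper limit of the scale (difference -0.96, SE 0.38, unadjusted limma p = 0.0359, exact permutation p = 0.143). Kcnj11, a subunit of the ATP-sensitive potassium channel, averaged 9.01 ± 0.59 in KO and 8.10 ± 0.80 in WT (difference 0.92, unadjusted limma p = 0.0837, exact permutation p = 0.143), and Ffar1, a fatty acid receptor, averaged 7.42 ± 0.92 in KO and 8.53 ± 1.36 in WT (difference -1.10, unadjusted limma p = 0.165, exact permutation p = 0.257). Without WT3 the difference was 0.48 for Kcnj11 and -0.55 for Ffar1, and without WT2 that of Ffar1 was -1.86. With the replicate number as a block Slc30a8 differed by -0.72 and no longer passed, and the difference was the same, again not passing, without KO4. Without KO4 and WT3 it differed by -0.63 and again did not pass. Kcnj11 differed by 1.08 both with the block, where it passed the unadjusted threshold, and without KO4, where it did not. It also passed without WT2 (difference 1.27) and without KO3, KO4 and WT3 (difference 0.92).

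**Figure D5:**
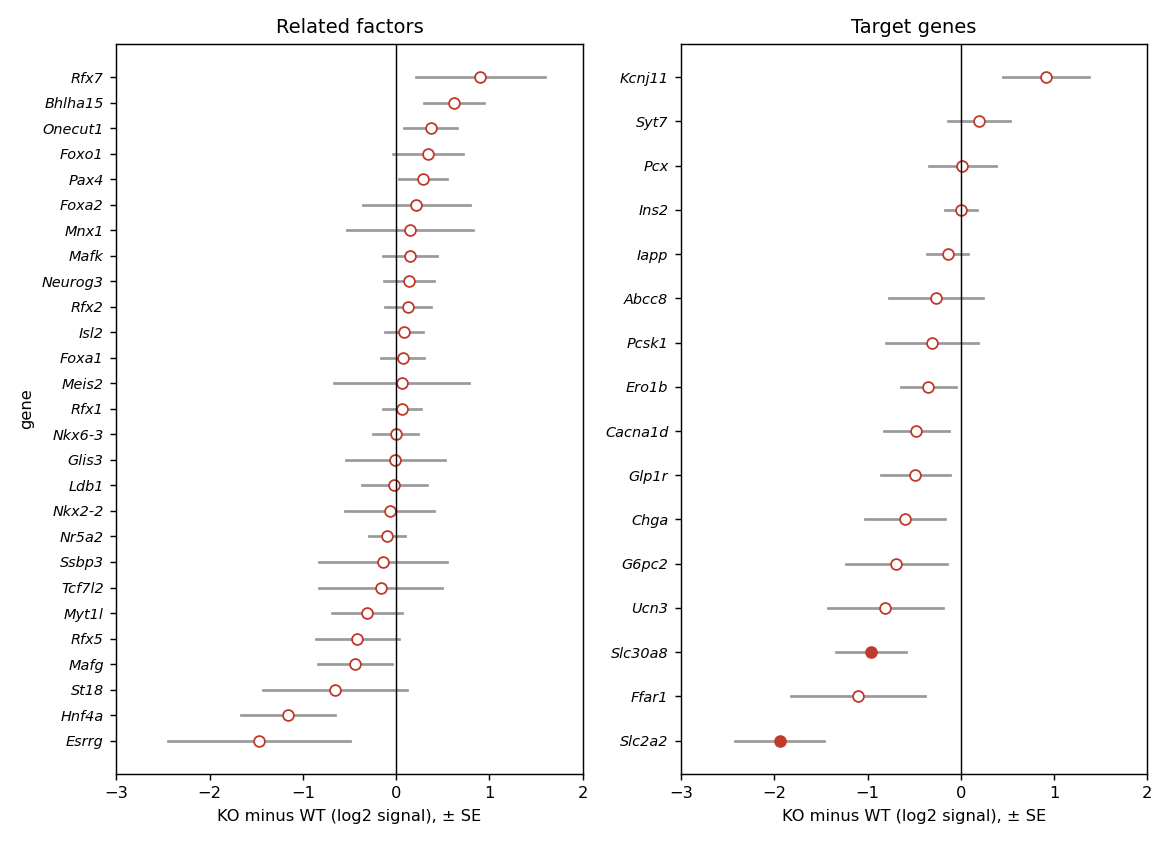
KO minus WT difference in log2 signal (x axis, points with ± SE) for the measured related factors and the measured target genes (y axis). Filled points passed an unadjusted p of 0.05 in limma's test, which only Slc2a2 and Slc30a8 among the targets and 0 of the related factors did.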

How the data were processed

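The members and the gene lists were chosen with earlier results of these data known. The authors deposited 1 log2 value per transcript cluster and array; the tools named are Affymetrix Expression Console and MAS5 (submitters' processing notes) and GeneSpring (the study's methods). For the step that made the log2 values, and for background correction and summarisation, the tool is not stated. Deposited values ran from 2.24 to 19.93, where 14 to 18 transcript clusters stood on 6 arrays and 0 on KO3. Array medians lay between 5.52 and 5.66, and since they differed by more than 0.1 the values were quantile normalized.

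Of 22198 transcript clusters 19565 had 1 gene symbol, 0 had several and 2633 had none. The KO and WT arrays entered a two-sided limma fit without covariates (version 3.58.1, under R version 4.3.3, functions lmFit then eBayes), and p-values were adjusted by Benjamini-Hochberg over the whole array. Exact two-sided permutation tests used all 35 assignments of the arrays. Simulated data served as a test of the fit. The genes named were all 10 factors, up to 4 genes with the smallest p in each of the other lists, markers on which a result turned, Rptor, and the 2 transcripts nearest to each factor by root mean square distance; Ldb1 was added after its values were seen. Promoter windows came from RefSeq GRCm38.p6, which held 11 for 8 factors and none for Mafa and Insm1. No detection calls or array dates were used. The study's methods call the pools independent biological replicates. The number of arrays limits the precision.

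Deviations of arrays of equal replicate number had correlations of 0.16, 0.24 and 0.17, against -0.18 to 0.02 for unequal numbers. Each group was centred on its own mean, so positive values for equal numbers by themselves pull those for unequal numbers down. The contrast was not tested. Because of these correlations a fit with the number as a block was run, though no source says what a number shares. No WT array has the number of KO4, so the block gave the same differences as leaving out KO4. Other alternatives were the deposited values, median centring, cyclic loess, removal of dim transcripts, the methods' Student t-test, trended and robust variances, array weights and leaving out arrays.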

Additional observations from a re-analysis of the deposited data

How the results depend on the processing

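In every alternative run, 0 of the 10 factors passed an unadjusted p of 0.05, and 0 of all transcript clusters passed after adjustment. All clusters at an unadjusted p of 0.05 numbered 300 without WT3 to 697 without KO1, 579 with the replicate number as a block and 534 by the methods' t-test, beside 484. Leaving out 1 array put KO and WT apart for 0 to 3 factors: Myt1 without KO1, Mafa without WT1, and Rfx3, Rfx6 and Insm1 without WT2, where 8.72%, 9.70% and 9.42% of all transcript clusters were apart. The median difference of the factors ran from -0.41 (without KO2) to 0.02 (without KO4). The replicate block gave the same 0.02, since KO4 does not enter its difference. Without both KO4 and WT3 the median was -0.07. That alternative was chosen after seeing the data, as was leaving out the 3 dim factors (-0.45). The target genes' median ran from -0.58 to -0.30 with 1 array left out, and was 0.00 without WT3, KO3 and KO4. The number of targets at an unadjusted p of 0.05 was 4 without WT2 and 1 without KO3, KO4, WT1 or WT3.

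Mafa, Rfx3, Rfx6, Insm1 and Myt1 kept their sign in all alternatives run, and Rfx6 ran from -0.95 to -0.32. Signs turned for the others. Nkx6-1 was -0.0325 as deposited, -0.0475 with median centring, -0.0592 with array weights and -0.32 to 0.58 with 1 array left out. Pax6 was 0.20 with the replicate block, the same value as without KO4, and -2.38 to 0.20 with 1 array left out. Pdx1 was -1.51 to 0.0129 with 1 array left out and 0.19 without KO4 and WT3. Isl1 was -0.56 to 1.43 with 1 array left out. Without KO3, KO4 and WT3, Isl1 was -0.17, Nkx6-2 -0.0286, Onecut1 -0.0296 and Ffar1 0.0389. With the replicate block Slc30a8 lost and Kcnj11 gained its call, and no factor's call changed. Slc30a8 also lost its call without KO4. Hnf4a passed without KO2 and with trended variances, Bhlha15 with array weights and without KO4 and WT3, and Ffar1 without WT2. Kcnj11 also passed without WT2, and without KO3, KO4 and WT3. The cause was not tested. Averaging the transcript clusters of a symbol gave nothing to compare, since 0 listed symbols had over 1.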

Other observations

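In 27 groups of 4 KO values (the factors, the named list genes and the marker means), 0 had a single array outlying by Dixon's test, where chance would give about 1.35. The 3 WT arrays were too few for that test. The groups come from the same 4 arrays and are not independent. With 4 values the test missed even Pax6, at 7.999 on KO4 against 12.06 to 14.13 on the other KO arrays. The 0 therefore does not show that KO4 was like the other KO arrays. The Y-linked genes separated the same pair of arrays one by one: Kdm5d was 3.64 on KO4 and 4.11 on WT3, Uty was 3.34 and 3.10, and Eif2s3y was 6.59 and 6.06, and each was higher on all 5 other arrays. Slc2a2 passed an unadjusted p of 0.05 in all 17 alternatives, from -2.27 to -1.41, and Slc30a8 in 7 of 17.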
